A study of Mus musculus with 6 samples.

Results

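The genes described here make, carry and sense retinoic acid in partly reprogrammed mouse cells. They are 10 of the 20325 genes in the deposited files: the retinaldehyde dehydrogenases Aldh1a1, Aldh1a2 and Aldh1a3, the retinol dehydrogenases Rdh10 and Rdh16, the cellular retinoic acid binding proteins Crabp1 and Crabp2, and the retinoic acid receptors Rara, Rarb and Rarg. They were found by symbol, and all 10 had a row in every library. The set was picked with measured values known: Aldh1a3 and Rdh16 were chosen because they were higher with Tet1 siRNA, and Crabp2 because it was lower after transfection. The values of the members between treatments are therefore given as a description, without a p-value, and where they are counted against a threshold the count reflects that choice. The difference between the cell lines played no part in the choice and was tested.

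Retinol enters the pathway by oxidation to retinaldehyde, carried out by retinol dehydrogenases such as Rdh10. Retinaldehyde dehydrogenases then turn retinaldehyde irreversibly into retinoic acid. The small carrier proteins Crabp1 and Crabp2 bind retinoic acid in the cytoplasm, and Crabp2 delivers it to nuclear receptors, which bind DNA as partners of the retinoid X receptors. In embryonic stem cells and in the early embryo the pathway is best known for driving differentiation and patterning, and the Cyp26 enzymes end the signal by breaking retinoic acid down.

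RNA was sequenced from 2 pre-iPSC lines, pre2-2 and pre3, which are partly reprogrammed cells. The labels give fibroblasts of OG2 embryos on a mixed 129SVJ, C57B6 and CBA background as the cell type and passage 10, and OG2 mice carry a GFP reporter under the Pou5f1 promoter. Cells of each line received control siRNA, Tet1 siRNA (given as Tet siRNA in the treatment field) or no transfection, which made 6 libraries, 1 for each line and treatment. All cells, controls included, were grown with LIF in medium for embryonic stem cells, to which vitamin C, a cofactor of the Tet enzymes that oxidise methylated cytosine, was added at 50 µg/ml. The sources disagree on timing: the series description starts vitamin C 16 h after transfection and takes RNA 32 h later, while the sample descriptions give 36 h of vitamin C and, for transfected cells, 48 h after transfection. Nothing says whether cultures were separate within a line, so p-values cover the spread between these libraries only. That spread is the departure from a model of line plus treatment, and for each gene it was estimated together with that of all genes tested. The line comparison is between these 2 lines only.

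The libraries held 1868640 to 2582803 expected counts, so 3 counts correspond to 1.16 to 1.59 CPM (counts scaled to a common library size). Tet1 was at 249, 245 and 153 CPM in pre2-2 (untransfected, control siRNA, Tet1 siRNA) and at 204, 250 and 158 CPM in pre3, and fell to 0.629 of the control siRNA level (log2 difference -0.67, SE 0.13, edgeR adjusted p = 0.0043). That call was not made by DESeq2 (adjusted p = 0.0988) nor without the Tet1 siRNA library of pre2-2 (0.316) or the control siRNA library of pre3 (0.229), and its adjusted p ran from 1.81e-09 to 1 over 13 alternatives. The lines differed in marker genes: the summed level of 15 pluripotency genes was 2340 to 2920 CPM in pre2-2 and 7260 to 8320 CPM in pre3, of which Pou5f1 alone gave 1040 to 1200 and 5770 to 6590 CPM, while Dppa3 had no count in any library. Without Pou5f1 the pluripotency sums of the lines overlapped. Sox2 also overlapped between the lines, at 413 to 494 CPM in pre2-2 and 380 to 433 CPM in pre3. Nanog had 0 to 7.13 expected counts per library. The summed level of 15 fibroblast genes was 2140 to 5190 CPM in pre2-2 and 1070 to 1440 CPM in pre3, and that of 12 interferon response genes was highest in the control siRNA library of each line (833 and 239 CPM). Of the other cells considered, trophectoderm genes (9 of 10 in the files) summed to 7.36 to 85.8 CPM with Elf5, Hand1 and Plac1 at 0, and 10 extraembryonic endoderm genes to 35.6 to 93.2 CPM with Foxa2, Afp and Ttr at 0. The 12 epithelial genes summed to 247 to 593 CPM and the 9 neural genes in the files to 693 to 1110 CPM, and no gene of either list was at 0 in all libraries. In bulk RNA, fewer cells of a type and less RNA per cell cannot be told apart.

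The receptors act through a repeated 6-base motif, so the promoter windows of RefSeq (build GRCm38.p6, 250 bases before to 50 after each annotated start) were searched on both strands for this motif. The forms searched were AGGTCA as the canonical form, GGGTCA as a variant of it, AGTTCA as the form common in response elements, and finally GGTTCA as its variant. A direct repeat of any of these motifs with a 5-base spacer (DR5), the classical retinoic acid response element, was present in 32 of 32851 windows of all genes (0.0974%). There were 12 windows for 7 of the 10 members, with none for Aldh1a3, Rdh10 or Crabp2. Rarb was the only member with a DR5 in a window. Its 250 bases before the start (chr14:16575477-16575726, minus strand) are shown because the repeat lies within them, together with those of Rdh16 (chr10:127800903-127801152, plus strand), a gene the set was chosen on. The sequences run 5′ to 3′ along the gene, and capitals mark the 6-base motifs on either strand.
Rarb: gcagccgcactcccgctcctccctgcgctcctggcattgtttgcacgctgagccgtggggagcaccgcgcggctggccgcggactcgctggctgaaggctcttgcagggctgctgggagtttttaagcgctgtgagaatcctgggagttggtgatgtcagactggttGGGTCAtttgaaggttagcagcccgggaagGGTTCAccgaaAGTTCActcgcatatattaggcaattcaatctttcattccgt
Rdh16: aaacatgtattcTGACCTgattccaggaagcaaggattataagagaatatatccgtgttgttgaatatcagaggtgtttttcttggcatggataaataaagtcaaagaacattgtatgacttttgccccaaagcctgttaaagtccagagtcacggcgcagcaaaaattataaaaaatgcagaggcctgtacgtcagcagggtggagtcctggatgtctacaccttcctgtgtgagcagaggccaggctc

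The DR5 of Rarb has its first base at -53, counted back from the start site. Cyp26a1, the retinoic acid degrading enzyme, also held a DR5, between -32 and -16 on the strand opposite to the gene. The 2 repeats are shown on the strand where each reads as a repeat, with the motifs in capitals and the spacer in lower case.
Rarb: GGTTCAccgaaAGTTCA
Cyp26a1: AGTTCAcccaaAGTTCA

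Rdh16 had a single motif, at -238 on the opposite strand, and no DR5, DR2 or DR1 (repeats with spacers of 5, 2 or 1 bases). At least 1 motif was present in 43.7% of all windows, a DR2 in 0.268% and a DR1 in 0.222%. The Rdh16 window of 300 bases held 4 CpG and the Rarb window 17, against a median of 7 over all windows (quartiles 3 to 20). A match is a description of the sequence, since binding and methylation were not measured in these files.

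The carriers and 2 of the receptors were the abundant members. In TPM, a transcript share corrected for length and so usable between genes, the mean level over the 6 libraries was 510 for Crabp2, 113 for Crabp1, 82.3 for Rarg and 21.0 for Rara. The enzymes were far lower, at 7.11 for Rdh10, 4.71 for Aldh1a3, 3.86 for Rdh16, 1.88 for Aldh1a1 and 1.03 for Aldh1a2, with Rarb at 1.71. The mean of Crabp2 stood at percentile 98.7 of all genes in the files and that of Aldh1a2 at percentile 39.0. The ranges over libraries of Crabp1 (90.0 to 143 TPM) and Rarg (61.7 to 108 TPM) overlapped, and from Rdh10 down the range of each gene overlapped that of the next in the order, so these neighbours are not separated by the spread between libraries. Crabp2 at its lowest (180 TPM) was above Crabp1 at its highest, and Rarg at its lowest was above Rara at its highest (28.4 TPM). Aldh1a1, Aldh1a2 and Rarb had 1 to 7 counts per library and did not pass the filter on low counts, so 7 of the 10 members were tested. Aldh1a3 and Rdh16 passed it only through their Tet1 siRNA libraries, the group they were chosen on.

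**Figure D1:**
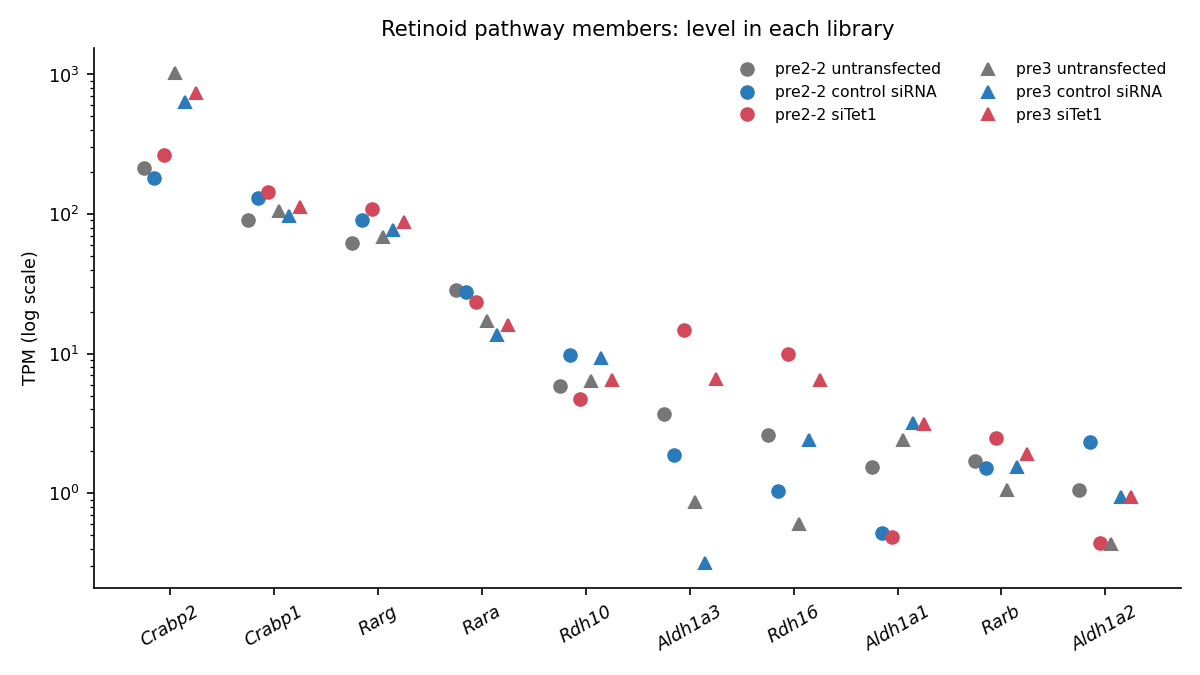
Level of each member in TPM (log scale), 1 point per library, circles for pre2-2 and triangles for pre3, coloured by treatment; genes are ordered by their mean. Crabp2 spans 180 to 1030 TPM, with all 3 pre3 libraries above the 3 of pre2-2, and the Aldh1a3 and Rdh16 points of the Tet1 siRNA libraries lie above the other 4 of each gene.

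Among the enzymes that complete retinoic acid synthesis, Aldh1a3 had 16, 6 and 51 counts in untransfected, control siRNA and Tet1 siRNA cells of pre2-2, and 3, 1 and 21 counts in the same order in pre3. These are 6.19, 3.02 and 23.8 CPM in pre2-2 and 1.53, 0.531 and 11.1 CPM in pre3. The Tet1 siRNA library was the highest of each line, and the lower of these 2 libraries was above all 4 others. Against control siRNA the ratio was 7.86 in pre2-2 (95% interval 3.37 to 22.4) and 20.9 in pre3 (3.37 to 866, resting on 1 count in the control). Against untransfected cells it was 3.84 (2.15 to 7.21) and 7.26 (2.17 to 38.0). These intervals are exact binomial ones for the ratio of counts and cover counting error only. The fit over all 6 libraries gave 9.71-fold against control siRNA (log2 difference 3.28, SE 0.52) and 4.52-fold against untransfected cells (2.17, SE 0.43). Without the control siRNA library of pre2-2 the first of these was 4.11 on the log2 scale, and without the Tet1 siRNA library of pre2-2 it was 4.02, with 2.91 against untransfected cells.

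Aldh1a1 and Aldh1a2, which catalyse the same step, were close to the floor. Aldh1a1 had 4, 1 and 1 counts in pre2-2 and 5, 6 and 6 in pre3, so that its pre3 libraries (2.55 to 3.19 CPM) were above its pre2-2 libraries (0.466 to 1.55 CPM). The counting intervals of these libraries overlapped, and 37.0% of the genes tested, which do not include Aldh1a1, had lines that did not overlap in CPM. Aldh1a2 had 3, 5 and 1 counts in pre2-2 and 1, 2 and 2 in pre3, and the lines overlapped. Summed per line, Aldh1a1 had 17 counts in pre3 and 6 in pre2-2, a ratio of 3.32 after correction for depth (95% counting interval 1.25 to 10.3), and Aldh1a2 had 5 and 9 (0.652, 0.172 to 2.16). Of the TPM of the 3 genes together, Aldh1a3 made up 58.8%, 39.5% and 94.1% in pre2-2 (untransfected, control siRNA, Tet1 siRNA) and 23.3%, 7.12% and 61.7% in pre3. Aldh1a1 made up 65.0%, 71.5% and 29.5% in pre3, and 24.6%, 11.0% and 3.09% in pre2-2. Aldh1a1 thus held the largest share in untransfected and control siRNA cells of pre3. Aldh1a3 held it in the Tet1 siRNA library of both lines and in untransfected cells of pre2-2. In control siRNA cells of pre2-2 it was Aldh1a2 (49.5%). All these shares rest on totals of few counts.

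Rdh16, a retinol dehydrogenase of the short-chain family, had 10.55, 3.12 and 32.23 expected counts in pre2-2 and 2, 7.22 and 19.62 in pre3. In CPM these were 4.08, 1.57 and 15.0 in pre2-2 and 1.02, 3.83 and 10.4 in pre3. As for Aldh1a3, both Tet1 siRNA libraries were above the other 4, but the order of untransfected and control siRNA cells differed between the lines. The member Rarg showed this order too (134 and 117 CPM, against at most 113 CPM), as did Fam167a, Krt20, Dppa2 and Gbx2, which are described below. The share of all genes with this order was not computed, so it cannot be read as a trait of Aldh1a3 and Rdh16. Some cell type markers were highest with Tet1 siRNA within each line, but none of those given here had both Tet1 siRNA libraries above the other 4. The 12 epithelial genes summed to 438, 441 and 593 CPM in pre2-2 and 333, 247 and 405 CPM in pre3. The trophectoderm genes summed to 7.36, 10.1 and 15.4 CPM in pre2-2 and 17.4, 11.2 and 85.8 CPM in pre3. Of single genes, the epithelial cadherin Cdh1 was at 134, 128 and 235 CPM in pre2-2 and 56.7, 52.6 and 127 CPM in pre3, and the pluripotency marker Dppa5a at 11.6, 11.6 and 36.8 and at 41.4, 39.8 and 122 CPM. The summed pluripotency genes were highest with Tet1 siRNA in pre2-2 (2920 CPM) but not in pre3 (7990 against 8320 CPM untransfected). Pou5f1 was highest untransfected in both lines (1200 and 6590 CPM, against 1140 and 6070 CPM with Tet1 siRNA). Sox2 was highest untransfected in pre2-2 (494 against 462 CPM) and with Tet1 siRNA in pre3 (433 against 395 CPM). On few counts, Zfp42 was highest with Tet1 siRNA in each line, and Nanog only in pre3. The part of these markers in the Aldh1a3 and Rdh16 values was not tested. The Rdh16 ratio of Tet1 siRNA to control was 9.56 in pre2-2 (95% counting interval 3.09 to 50.4) and 2.71 in pre3 (1.16 to 7.98). For Rdh16 the fit gave 4.81-fold (log2 difference 2.26, SE 0.56). Only the Tet1 siRNA libraries carried Rdh16 past the filter on low counts, so the fitted values are a description. Against untransfected cells the fit gave 4.55-fold (2.19, SE 0.53). Without the control siRNA library of pre2-2 the difference from control siRNA was 1.30 on the log2 scale, and without that of pre3 it was 3.38. Without the untransfected library of pre2-2 the difference from untransfected cells was 3.50, and without that of pre3 it was 1.64.

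Rdh16 has close relatives: 14.0% of the 50-base words of its GENCODE M21 transcripts occur in another gene, and 6.28% of its words are shared with Rdh9, the gene with the most. The expected counts share such reads out by a model, so the value of Rdh16 is less certain than its counts alone imply. Summed over 6 genes of the family (Rdh16, Rdh1, Rdh9, Rdh7, Rdh19 and BC089597), the level was 24.1, 16.2 and 34.8 CPM in pre2-2 and 13.9, 21.4 and 27.9 CPM in pre3. The sum was highest with Tet1 siRNA in each line, but it includes Rdh16, so this order is no separate result. Rdh1 was at 16.7, 11.5 and 14.7 CPM in pre2-2 and 11.3, 15.1 and 14.6 CPM in pre3, not highest with Tet1 siRNA in either line. Rdh9 was highest with Tet1 siRNA in pre2-2 only (4.65 CPM). Rdh16 made up 17.0%, 9.7% and 43.2% of that sum in pre2-2 and 7.36%, 17.9% and 37.3% in pre3. Of the other members, Aldh1a1 shared 3.06% of its words, with Aldh1a7, Aldh1a3 1.15% and Rara 0.23%, and the rest none.

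Rdh10, the main embryonic retinol dehydrogenase, had 6.66, 10.6 and 5.12 CPM in pre2-2 and 7.66, 10.6 and 7.41 CPM in pre3. Its level was highest in the control siRNA library of each line and lowest in the Tet1 siRNA library, which is the opposite order to Aldh1a3. The fit gave a log2 difference of -0.77 (SE 0.42) between Tet1 siRNA and control siRNA and of 0.57 (SE 0.41) between control siRNA and untransfected cells. The per-line ratios of Tet1 siRNA to control, 0.485 (95% counting interval 0.211 to 1.05) and 0.698 (0.326 to 1.45), both have intervals that include 1.

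**Figure D2:**
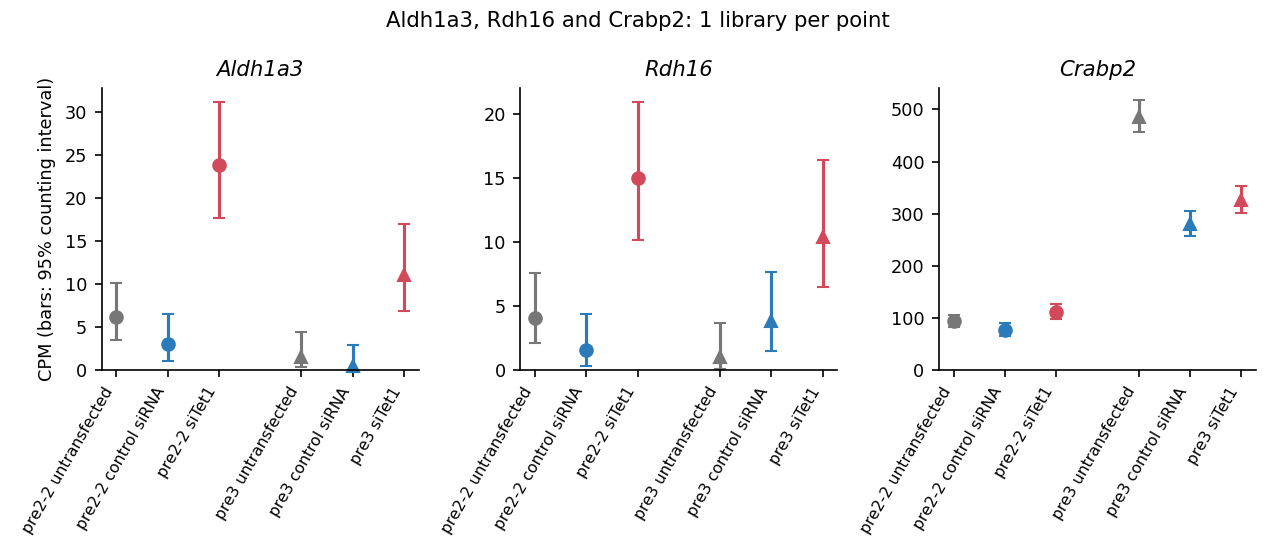
Aldh1a3, Rdh16 and Crabp2 in CPM in each library (linear axes from 0), with exact Poisson 95% counting intervals; circles are pre2-2 and triangles pre3. The Tet1 siRNA libraries are highest for Aldh1a3 (23.8 and 11.1 CPM) and Rdh16 (15.0 and 10.4 CPM), and the Crabp2 points of pre3 lie above those of pre2-2.

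Crabp2, the carrier that hands retinoic acid to the nuclear receptors, had the largest line difference of the 7 tested members. It was at 93.6, 76.5 and 112 CPM in pre2-2 and at 486, 280 and 327 CPM in pre3 (untransfected, control siRNA, Tet1 siRNA). Every pre3 library was above every pre2-2 library, with means of 365 ± 108 and 94.1 ± 17.9 CPM (SD, n = 3 each). In the model with line and treatment over all genes Crabp2 was 3.83-fold higher in pre3 (log2 difference 1.94, SE 0.12, edgeR adjusted p = 7.42e-12). The call was made in all 12 alternatives run, with log2 differences of 1.69 to 2.14 and adjusted p of 6.21e-62 to 0.000334.

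Within each line, Crabp2 was lower with control siRNA than without transfection. The ratio was 0.817 in pre2-2 (95% counting interval 0.663 to 1.01) and 0.576 in pre3 (0.517 to 0.642), and the fit gave 0.663-fold (log2 difference -0.59, SE 0.15). Without the untransfected library of pre3 this difference was -0.18. With Tet1 siRNA the level was 1.47 times that of control siRNA in pre2-2 (1.19 to 1.81) and 1.17 times in pre3 (1.04 to 1.31), a fitted log2 difference of 0.37 (SE 0.15), which was 0.12 without the Tet1 siRNA library of pre2-2 and 0.70 without that of pre3. Relative to untransfected cells, the Tet1 siRNA library was higher in pre2-2 (1.20, 0.999 to 1.44) and lower in pre3 (0.672, 0.606 to 0.744). The interferon response genes were highest in the control siRNA library of each line, as given above, where Crabp2 was lowest. With Tet1 siRNA they were above untransfected cells in both lines (292 against 144 CPM in pre2-2, 139 against 76.3 CPM in pre3), while Crabp2 was below untransfected cells only in pre3. The part of the interferon response genes in the Crabp2 values was not tested.

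Crabp1, a related carrier linked to retinoic acid sequestration and breakdown, was at 32.5, 45.8 and 49.4 CPM in pre2-2 and 40.9, 35.5 and 40.8 CPM in pre3. The lines overlapped, with means of 42.6 ± 8.89 and 39.0 ± 3.09 CPM (SD, n = 3 each), and the line difference did not pass the test (log2 difference -0.11, SE 0.17, edgeR adjusted p = 0.688). In TPM, Crabp2 was 2.37, 1.37 and 1.87 times Crabp1 in pre2-2 and 9.77, 6.49 and 6.58 times in pre3. The pair was thus more uneven in every pre3 library, where Crabp2 made up 86.7% to 90.7% of their summed TPM, against 57.8% to 70.3% in pre2-2.

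Rarg was the main receptor transcript in every library. It was at 78.5, 113 and 134 CPM in pre2-2 and 94.5, 99.8 and 117 CPM in pre3, lowest in untransfected and highest in Tet1 siRNA cells of each line. The Tet1 siRNA to untransfected ratio was 1.71 in pre2-2 (95% counting interval 1.42 to 2.05) and 1.23 in pre3 (1.01 to 1.51), and the fit gave 1.46-fold (log2 difference 0.54, SE 0.15). Against control siRNA the fitted difference was 0.24 (SE 0.15), and between control siRNA and untransfected cells it was 0.31 (SE 0.15). Single libraries moved these log2 differences. Without the untransfected library of pre2-2 the difference of Tet1 siRNA from untransfected cells was 0.31 and that of control siRNA 0.08, and without that of pre3 they were 0.75 and 0.52. The difference from control siRNA was 0.12 without the Tet1 siRNA library of pre2-2 or the control siRNA library of pre3, and 0.34 without either of the other 2. Between the lines Rarg did not pass the test (109 ± 28.1 and 104 ± 11.5 CPM, SD, n = 3 each; log2 difference -0.05, SE 0.12, edgeR adjusted p = 0.815).

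Rara, the more widely expressed receptor, was at 44.7, 41.3 and 34.9 CPM in pre2-2 and 29.1, 21.8 and 25.9 CPM in pre3. All pre3 libraries were below all pre2-2 libraries, with means of 25.6 ± 3.68 and 40.3 ± 4.96 CPM (SD, n = 3 each). The level in pre3 was 0.635 of that in pre2-2 (log2 difference -0.65, SE 0.17, edgeR adjusted p = 0.00548). The call was made in 9 of 12 alternatives, with adjusted p of 0.00261 to 0.122 over them, and was not made by DESeq2 (0.122), without the control siRNA library of pre2-2 (0.0857) or without that of pre3 (0.103). The fitted treatment differences of Rara were -0.04 (SE 0.22) for Tet1 siRNA against control siRNA and -0.28 (SE 0.21) against untransfected cells.

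Rarb, itself a well known retinoic acid target with the response element shown above, had 6, 4 and 7 counts in pre2-2 and 3, 4 and 5 in pre3. Its sums of 17 and 12 counts gave a pre3 to pre2-2 ratio of 0.828 (95% counting interval 0.361 to 1.84), so a difference was not detectable at this depth. Of the TPM of the 3 receptors, Rarg made up 67.2%, 75.9% and 80.6% in pre2-2 and 79.1%, 83.6% and 82.8% in pre3, Rara 14.8% to 30.9% and Rarb 1.21% to 1.87%. The Rarg to Rara ratio in TPM was 2.17, 3.32 and 4.61 in pre2-2 and 4.01, 5.66 and 5.39 in pre3, lowest in the untransfected library of each line.

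**Figure D3:**
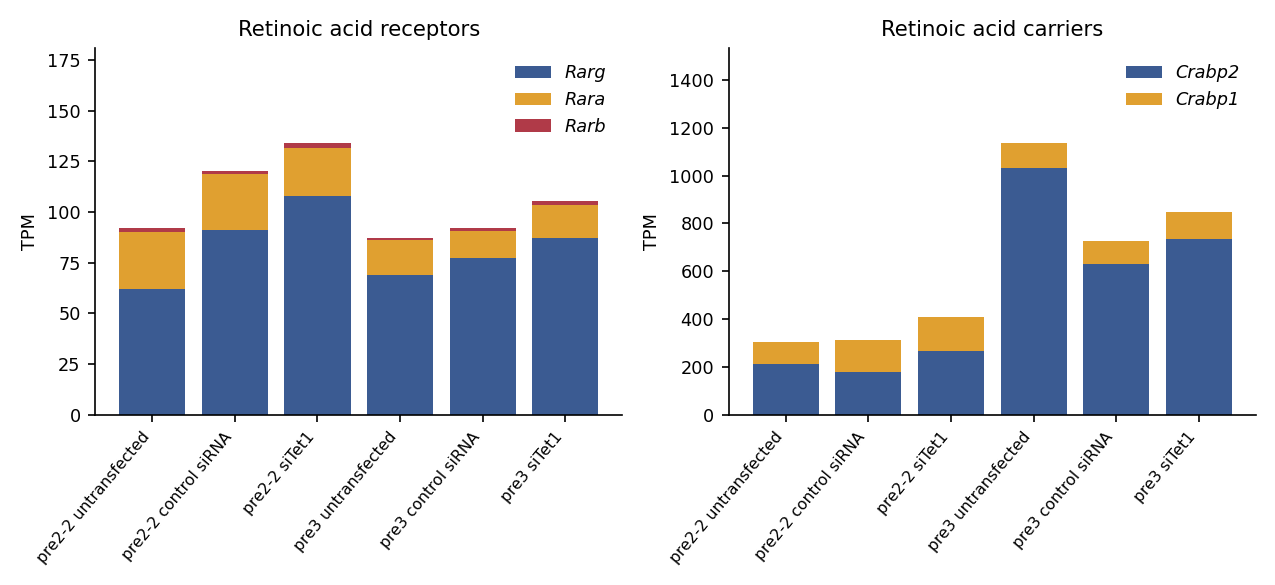
Stacked TPM of the 3 retinoic acid receptors (left) and of the 2 carriers (right) in each library, with axes from 0. Rarg is the largest part of every receptor bar (67.2% to 83.6%), and the Crabp2 part of the carrier bar is 180 to 267 TPM in pre2-2 and 631 to 1030 TPM in pre3.

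Between the lines, 3 of the 7 tested members passed the test, 1 higher in pre3 (Crabp2) and 2 lower (Rara and Aldh1a3). The background was high: 30.2% of the 11048 genes tested passed, 14.4% higher and 15.8% lower, and 37.0% had lines that did not overlap in CPM, as Crabp2 and Rara do. The count of members is therefore no result about retinoid genes as a group, and their median log2 difference was -0.11 against 0.003 over all genes tested. Aldh1a3 was at 0.381 of its pre2-2 level (log2 difference -1.39, SE 0.40, edgeR adjusted p = 0.00942, means 11.0 ± 11.2 and 4.40 ± 5.85 CPM, SD, n = 3 each). The lines overlapped, but pre3 was the lower line within each of the 3 treatments. This call was made in 9 of 12 alternatives (adjusted p 0.00288 to 0.331) and was not made by DESeq2 (0.0991), without the treatment term (0.331) or without the Tet1 siRNA library of pre2-2 (0.0628, log2 difference -2.10). Rdh10 (0.22, SE 0.34, adjusted p = 0.684) and Rdh16 (-0.44, SE 0.46, adjusted p = 0.513) did not pass the test. The pluripotency and fibroblast marker sums given above differ between the same lines. Most of the first is Pou5f1 in pre3, and without Pou5f1 it overlaps between the lines. The part of these markers in the member differences was not tested.

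Between treatments, the members were chosen on these same values, so that the counts past the threshold of the fit over all genes follow from the choice, test nothing and are given only beside the background. The 3 contrasts are not independent, since any pair of them shares a group of libraries. For Tet1 siRNA against control siRNA, Aldh1a3 and Rdh16 were past the threshold, both higher, where 1.58% of all genes were (1.15% higher and 0.434% lower), and the median over the 7 tested members was 0.24 on the log2 scale. For control siRNA against untransfected cells it was Crabp2 alone, lower, where 1.48% of all genes were past the threshold (1.38% higher and 0.0996% lower), with a median of -0.08. For Tet1 siRNA against untransfected cells it was Aldh1a3, Rdh16 and Rarg, all higher, where 6.55% of genes were past it (4.92% higher and 1.63% lower), with a median of 0.31. The median over all genes tested was 0.003 to 0.012 in these contrasts.

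Other genes of the pathway were read from 5 lists with 51 symbols, of which 50 were in the files and 24 passed the filter. Between the lines 10 of the 24 passed the test, 6 higher in pre3 and 4 lower (41.7%, against the 30.2% of all genes given above), and 3 of the 10, Rxra, Fabp5 and Tgm2, did so in every alternative run. Rxra, a partner of the retinoic acid receptors on DNA, was at 17.8, 43.8 and 51.2 CPM in pre2-2 and 93.0, 84.4 and 95.3 CPM in pre3 (log2 difference 1.34, SE 0.19, edgeR adjusted p = 4.12e-06). Its partner gene Rxrb was at 49.8 to 67.9 CPM in pre2-2 and 74.1 to 91.0 CPM in pre3 (0.49, SE 0.13, adjusted p = 0.00497). None of the 6 tested coactivators and corepressors of that list passed. Of the called pathway genes reported here, those other than Rxra, Fabp5 and Tgm2 were not called by DESeq2 (adjusted p 0.11 to 0.293), and each of them lost its call when at least 1 control siRNA or Tet1 siRNA library, of either line, was left out, but not when an untransfected one was.

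Fabp5, a fatty acid binding protein that also carries retinoic acid, was at 135, 92.6 and 62.4 CPM in pre2-2 and 281, 217 and 208 CPM in pre3. It was higher in pre3 (log2 difference 1.31, SE 0.12, edgeR adjusted p = 4.37e-09), in the same direction as Crabp2. Of the 9 tested oxidoreductases, Adh7 (0.86, SE 0.28, adjusted p = 0.023), Rdh11 (0.51, SE 0.16, adjusted p = 0.0186) and Adh5 (0.31, SE 0.11, adjusted p = 0.0341) were higher in pre3. Dhrs9 was lower on 6 counts against 33 (-2.20, SE 0.64, adjusted p = 0.0107). It had 13 counts in control siRNA and in Tet1 siRNA cells of pre2-2, and 2 in each pre3 library. Only the line where Dhrs9 is high thus carried it past the filter, so its call, included in the line count above, is no support for a difference. Dhrs3, a retinaldehyde reductase induced by retinoic acid, was at 4.78 to 10.2 CPM and did not pass (0.36, SE 0.40, adjusted p = 0.543).

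Of the retinoic acid response genes, 5 of 12 passed the filter. Tgm2, tissue transglutaminase, was at 103, 93.1 and 81.5 CPM in pre2-2 and 55.7, 31.3 and 28.6 CPM in pre3 (log2 difference -1.28, SE 0.15, edgeR adjusted p = 2.38e-07). Meis2, a homeobox gene, was also lower in pre3 (35.6 ± 8.12 against 52.5 ± 18.0 CPM, SD, n = 3 each; -0.55, SE 0.16, adjusted p = 0.0101). The response genes Stra8 and Hoxb1 had no count in any library. None of the 3 Cyp26 genes passed the filter: Cyp26a1, with its DR5, had 0 to 3 counts per library and Cyp26b1 had 2 to 11. The serum retinol carrier Rbp4 had 0 to 1 counts and the retinol receptor Stra6 1 count in all, which at this depth does not separate a low level from none.

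**Figure D4:**
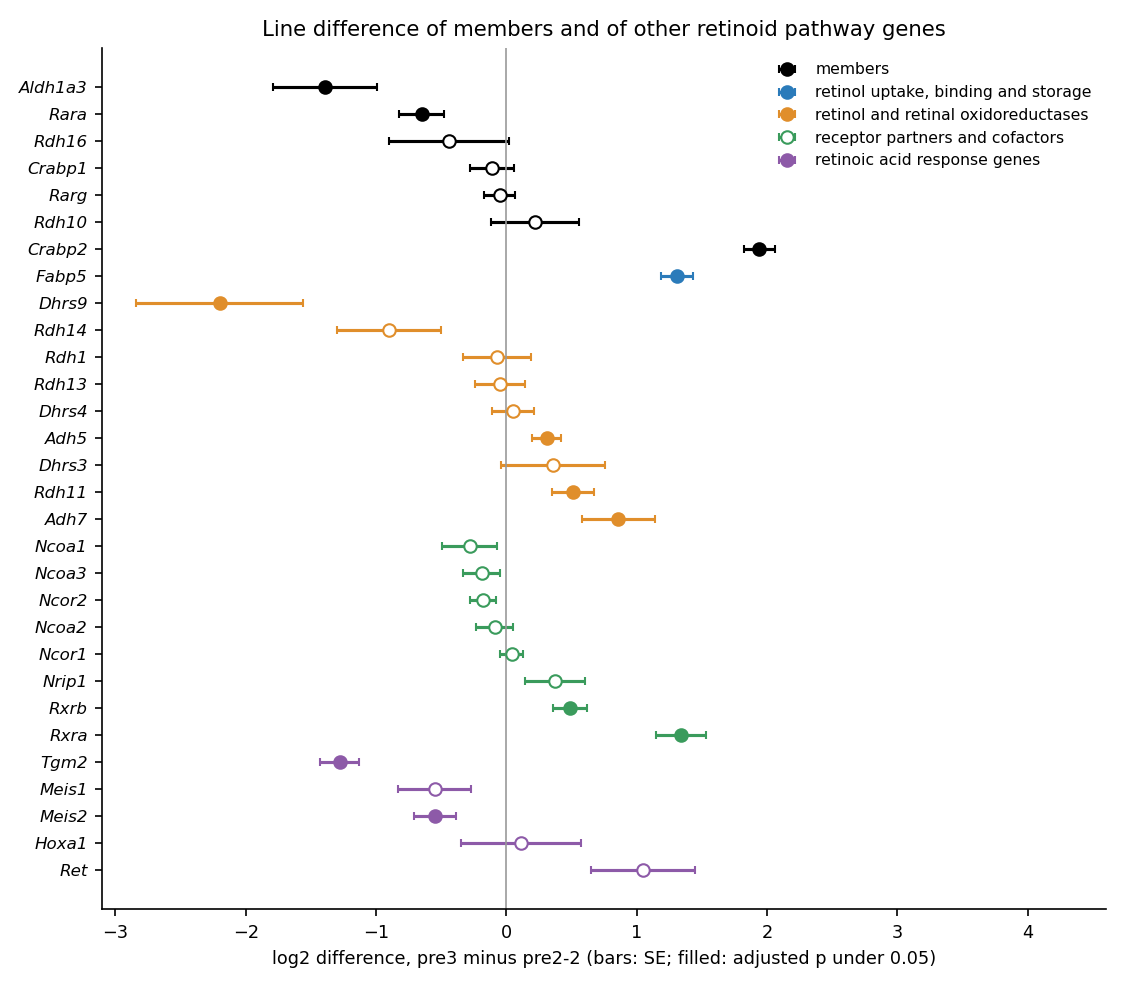
Log2 difference between pre3 and pre2-2 with its SE for the 7 tested members (top) and the tested pathway genes reported here, by list; filled points passed an edgeR adjusted p under 0.05. Crabp2 (1.94) lies farthest to the right. Dhrs9 (-2.20), on few counts and past the filter only through pre2-2, lies farthest to the left.

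For Tet1 siRNA against control siRNA none of the 24 pathway genes passed in edgeR, DESeq2 or limma, with 4 at an unadjusted p under 0.05 in edgeR. For control siRNA against untransfected cells the same 3 tools also called 0, with 2 at an unadjusted p under 0.05. Between Tet1 siRNA and untransfected cells 4 of 24 passed in edgeR (16.7%, against the 6.55% of all genes given above), and no gene of these 4 did so in every alternative. This contrast covers transfection and Tet1 siRNA together, so levels are given for untransfected, control siRNA and Tet1 siRNA cells in turn. Meis2 rose 1.70-fold (log2 difference 0.77, SE 0.19, edgeR adjusted p = 0.0149). It was at 41.0, 43.3 and 73.2 CPM in pre2-2 and 26.6, 37.8 and 42.4 CPM in pre3. Fabp5, with its levels given above, fell to 0.606 (-0.72, SE 0.15, adjusted p = 0.00251). Adh7 fell to 0.345 (-1.53, SE 0.37, adjusted p = 0.0101), at 13.5, 7.55 and 6.05 CPM in pre2-2 and 23.5, 20.7 and 6.36 CPM in pre3. DESeq2 called none of the 4, with adjusted p of 0.0601 to 0.445 for Meis2, Fabp5 and Adh7. Without the Tet1 siRNA library of pre2-2 only 1 of them passed, Adh7, and the call of Meis2 was also not made without the untransfected library of pre2-2 (0.0558). Adh7 was not called without the Tet1 siRNA library of pre3 (0.281).

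The genes with the pattern most like each chosen member were found by the root mean square difference of centred log2 levels over the 6 libraries, among 11047 other genes. Fam167a was nearest to both Aldh1a3 (0.64, against a median of 1.55 over all genes) and Rdh16 (0.50, against 1.22), with 2.71, 2.01 and 15.8 CPM in pre2-2 and 1.53, 1.59 and 9.0 CPM in pre3. Next to Aldh1a3 came Krt20 (0.65) and Gab2 (0.71), and next to Rdh16 came Dppa2 (0.52) and the homeobox gene Gbx2 (0.57). Gbx2 was at 7.35, 7.55 and 25.6 CPM in pre2-2 and 3.58, 7.44 and 11.7 CPM in pre3. Crabp2 was followed most closely by Ndufa4l2 (0.16, against 1.02), Kif21b (0.18) and Liph (0.19). Ndufa4l2 was at 11.6, 10.6 and 11.6 CPM in pre2-2 and 60.8, 40.4 and 36.1 CPM in pre3, so it too separated the lines and was highest in untransfected pre3. These likenesses are over 6 libraries and carry no test.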

How the data were processed

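RNA was extracted with Trizol and libraries were made with the TruSeq kit, per the labels' protocols. RSEM 1.1.21 and mm9 are named in the submitters' processing notes, and the aligner is not given in the sources used here. The authors deposited, per library, an expected count and a transcript fraction for each of 20325 genes. The fraction deposited by the authors was multiplied by 1e+06 to give TPM, and a deposited series-wide table was not used because it repeats these fractions. Expected counts were rounded for testing (18.7% to 21.4% of values were not whole within 0.005), which lets reads shared between related genes move a value.

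The 11048 genes passing filterByExpr (minimum count 10, by treatment) were fitted with edgeR 4.0.16 in R 4.3.3 (quasi-likelihood, TMM, line plus treatment, all 6 libraries, 2 residual degrees of freedom), with Benjamini-Hochberg adjustment over all of them and calls under 0.05. The prior on the spread, taken from all genes tested, had 23.2 degrees of freedom against the 2 residual ones of a gene. The spread behind each p-value is thus mostly that of other genes. SE is the log2 difference over the square root of F. The script was tested on simulated data. CPM uses TMM factors, and depth ranges from 1868640 to 2582803 expected counts. The line term is the pairing: replicate 1 of each treatment is pre2-2 and replicate 2 is pre3, per the titles. Alternatives were DESeq2 1.42.0, limma 3.58.1 (voom), other scalings, no filter, no line or treatment term, 4-library fits and each library left out. Likeness used log2(CPM + 0.5) of tested genes with a mean of at least 2 CPM. Library-level intervals are exact, at 95%, and cover counting error only.

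The members, gene lists and tests were chosen with earlier results of these data known. Named genes are all members, every pathway gene called in any contrast, further pathway genes (Rxra, Rxrb, Cyp26a1, Cyp26b1, Rbp4, Dhrs3, Rdh11), the 3 genes most like Aldh1a3, Rdh16 and Crabp2, and Tet1. Of the markers, Cdh1, Dppa5a, Pou5f1, Sox2, Zfp42 and Nanog were named after their values were seen. 1 pathway gene that the rule names is not reported here, though the counts over the lists include it. Stra6, Stra8 and Hoxb1 were added after their values were seen. Promoter sequences are from RefSeq on GRCm38.p6, not the build of the files, and transcripts for the shared-word check from GENCODE M21.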

Additional observations from a re-analysis of the deposited data

Results flagged for a closer look

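For Rdh16, Crabp1, Crabp2 and Rara, a treatment difference had opposite signs in the 2 lines. The share of all tested genes with such signs was not computed, so this cannot be read as a trait of these members. Each line has 1 library per treatment, and the difference between the lines was not tested. For Rdh16, control siRNA against untransfected cells gave a log2 ratio of -1.38 in pre2-2 and 1.91 in pre3, on 2 to 11 counts per library. For Crabp1 the same contrast gave 0.50 in pre2-2 and -0.20 in pre3. For Crabp2, Tet1 siRNA against untransfected cells gave 0.26 in pre2-2 and -0.57 in pre3. For Rara, Tet1 siRNA against control siRNA gave -0.24 in pre2-2 and 0.25 in pre3, and both counting intervals include a ratio of 1. Members under the filter on low counts were not examined for this.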

How the results depend on the processing

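The counts of calls depended strongly on the setting, and the cause was not tested. Between the lines 3335 genes were called, 1429 with DESeq2, 2061 without the treatment term and 2152 to 3631 with 1 library left out. Tet1 siRNA against control siRNA gave 175, with 292 unfiltered, 24 with DESeq2, 613 in the replicate block fit of only the 4 libraries compared, and 34 to 632 with 1 library left out. Control siRNA against untransfected cells gave 164, with 259 unfiltered, 32 with DESeq2 and 27 to 733 with 1 library left out. Tet1 siRNA against untransfected cells gave 724, with 85 with DESeq2 and 172 to 1900 with 1 library left out. With no replicate block (the line term left out) edgeR called 0 genes in each of the 3 treatment contrasts, with 178, 84 and 353 at an unadjusted p under 0.05.

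Of the members, 3 were called between the lines, 1 with DESeq2 (Crabp2) and 2 to 3 with 1 library left out. Of the pathway genes, 10 were called between the lines, 3 with DESeq2, 6 without the treatment term and 4 to 13 with 1 library left out. For Tet1 siRNA against untransfected cells the 4 calls became 7 unfiltered, 0 with DESeq2, 0 with no replicate block, and 1 to 8 with 1 library left out. The 0 calls against control siRNA became 1 with library totals only, 1 unfiltered, 2 in the replicate block fit of 4 libraries and 0 to 2 with 1 library left out, and the 0 calls of control siRNA against untransfected cells became 0 to 2. The line differences of Crabp1 (-0.31 to 0.04) and Rarg (-0.19 to 0.04), neither called, changed sign with 1 library left out. Leaving out a library left 1 sample in an arm, which was assumed to vary like the others. No value came from the 4-library fit of control siRNA against untransfected cells for Aldh1a3 and Rdh16, which the filter removed. Depth limits Aldh1a1, Aldh1a2 and Rarb most.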
